A study of Rattus norvegicus with 9 samples.

Results

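The 10 genes described here mark T cells and natural killer cells: Cd3d, Cd3e, Cd3g, Cd247, Cd4, Cd8a, Nkg7, Gzmb, Prf1 and Klrd1. They were chosen by name, as the rows of the deposited expression table that carry these symbols, and all 10 were found among its 32623 rows, each with 1 row. All 10 were also among the 13886 genes that averaged at least 1 FPKM (fragments scaled for gene length and library depth) over the 9 libraries and were therefore tested. Poly(A) RNA from the femur of Sprague-Dawley rats was sequenced in 3 groups of 3 libraries. The treated group received Desertliving Cistanche herb, which the study's title places in ovariectomized rats, and its dose and duration were not stated. The ovariectomized group is the model of postmenopausal osteoporosis, and the control group was labelled as normal rats. The genotype of all 3 groups was given as WT, so that the groups differ by surgery and treatment alone as far as the labels say, and the age of the rats was not given. The labels do not say that each library came from a separate rat, so p-values measure the spread between libraries, which may be technical. Libraries held 54992823 to 66531156 counts.

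T cells read antigen through a receptor whose signal is carried by the CD3 chains and the zeta chain, and the coreceptors CD4 and CD8 bind the molecules that present the antigen. Natural killer cells have no such receptor and use activating and inhibitory receptors, some of which share the zeta chain. Both natural killer cells and CD8 T cells kill by releasing granules that hold perforin and granzymes. Bone marrow, which is part of the femur, holds mature T and natural killer cells among a large excess of developing myeloid, erythroid and B cells, and T cell cytokines are known to act on bone resorption after loss of oestrogen.

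None of the 10 genes passed the test for a change between groups, and with edgeR the share of all genes tested was 0.00% in each comparison. For 9 of the 9 genes other than Gzmb, the fold between the highest and the lowest library of the most variable group was larger than the fold between the highest and the lowest group mean. Means of 3 libraries vary less than single libraries, so this count says little about the genes. Klrd1 was the 1 gene of the 10 whose libraries did not overlap between a pair of groups, treated and ovariectomized. Of all genes tested, 12.4% did not overlap in that comparison. Klrd1 was 1.90-fold higher in treated than in ovariectomized femora and did not pass the threshold. Its mean of 1.01 FPKM was just above the limit for testing, carried there by the treated libraries. In bulk tissue, fewer cells of a type and less RNA per cell cannot be told apart.

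The promoters of 8 of the 10 genes were matched by symbol in RefSeq's rat table (build GRCr8), and Cd4 and Klrd1 were not. The 150 bases just before the annotated start are shown for 3 genes that the results below set against each other: Cd3e, whose level moved with that of Cd3d and Cd8a, and the granule genes Nkg7 and Prf1, whose levels did not move together. They are written 5′ to 3′ on the gene's strand, and capitals mark GGAA or its reverse complement TTCC, the core letters bound by the ETS family of factors, many of which act in lymphocytes.
Cd3e: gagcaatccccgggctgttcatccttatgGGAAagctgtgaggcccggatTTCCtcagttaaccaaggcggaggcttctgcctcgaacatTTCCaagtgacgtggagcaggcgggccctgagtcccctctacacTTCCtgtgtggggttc
Nkg7: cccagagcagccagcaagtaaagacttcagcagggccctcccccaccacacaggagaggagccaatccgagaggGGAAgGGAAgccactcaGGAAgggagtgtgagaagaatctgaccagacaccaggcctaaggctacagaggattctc
Prf1: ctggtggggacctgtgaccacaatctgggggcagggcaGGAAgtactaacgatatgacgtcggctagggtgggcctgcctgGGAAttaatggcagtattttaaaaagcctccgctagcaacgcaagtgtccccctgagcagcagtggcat
The Cd3e stretch lies at chr8:54211771-54211920 on the minus strand, that of Nkg7 at chr1:102981347-102981496 on the plus strand, and that of Prf1 at chr20:29788890-29789039 on the plus strand. Cd3e had 4 matches, Nkg7 had 3 and Prf1 had 2. Of the 33469 promoters in the same table, 81.1% hold at least 1 match in the same 150 bases, with a median of 2. TGTGGT, the RUNX core, was present once on either strand in the Nkg7 and Prf1 stretches and was not found in that of Cd3e, against 8.38% of all promoters. CTTTGA, a TCF and LEF core, was found in none of the 3, against 8.03% of all promoters. A match is a description of the letters and not a bound site.

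The signalling chains came from a compact cluster. In the coordinates of the deposited table, for which the sources used here name no genome build, Cd3g (chromosome 8, 49274960 to 49280901, minus strand) and Cd3d (49282460 to 49287110, plus strand) lie head to head with 1558 bases between them, and Cd3e (49297608 to 49308806, minus strand) follows, so that the 3 genes span 33847 bases. Cd3d, which encodes the CD3 delta chain, had 2.84, 2.54 and 3.96 FPKM in treated femora, 3.66, 2.15 and 2.43 FPKM in ovariectomized femora and 3.33, 1.73 and 2.26 FPKM in control femora. Cd3e, the epsilon chain, had 2.97, 3.20 and 5.09 FPKM in treated, 4.62, 2.89 and 2.52 FPKM in ovariectomized and 5.14, 1.95 and 2.95 FPKM in control libraries. In both genes the high libraries were treated 3, ovariectomized 1 and control 1, and the groups overlapped throughout.

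Cd3g, the gamma chain, stood out among them for how little it varied. It had 6.91, 8.47 and 8.50 FPKM in treated, 7.12, 6.91 and 7.28 FPKM in ovariectomized and 8.73, 6.68 and 8.44 FPKM in control libraries. The groups overlapped, and by CPM (counts scaled to a common library total, with TMM factors) the highest library exceeded the lowest by 1.20-fold within the treated, 1.03-fold within the ovariectomized and 1.28-fold within the control group. For Cd3e these folds were 1.65, 1.87 and 2.59 in the same order of groups. Cd247 (chromosome 13, 83996080 to 84071400), which encodes the zeta chain used by T cells and by several natural killer receptors, had 1.57, 2.18 and 4.02 FPKM in treated, 2.25, 2.32 and 1.60 FPKM in ovariectomized and 2.26, 1.26 and 2.25 FPKM in control libraries. Its highest value was treated 3, as for Cd3d, and its groups overlapped.

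The fitted differences of the 4 chains were small against their errors. For ovariectomized against control femora the log2 fold changes, with standard errors from edgeR, were 0.13 ± 0.32 for Cd3d, -0.04 ± 0.39 for Cd3e, -0.20 ± 0.15 for Cd3g and 0.06 ± 0.37 for Cd247. For treated against ovariectomized femora they were 0.13 ± 0.32, 0.12 ± 0.39, 0.12 ± 0.15 and 0.28 ± 0.37 in the same order of genes. The adjusted p for ovariectomized against control in edgeR was 1.0 for each of the 4. The narrowest interval was that of Cd3g, whose 95% interval for treated against ovariectomized ran from -0.23 to 0.47 on the log2 scale, and the widest was that of Cd3e, from -0.78 to 1.02. Both intervals include 0 and changes in either direction, so that equal levels were not shown either.

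Cd4 (chromosome 4, 157383052 to 157408176), the coreceptor of helper T cells, which in rats is also carried by monocytes and macrophages, had 19.7, 25.6 and 24.2 FPKM in treated, 36.8, 19.9 and 16.2 FPKM in ovariectomized and 25.7, 16.8 and 28.9 FPKM in control femora. The ovariectomized group held both the highest and the lowest of the 9 libraries. Cd8a (chromosome 4, 99239115 to 99243351), a chain of the coreceptor of killer T cells that rat natural killer cells also carry, had 6.19, 6.53 and 8.16 FPKM in treated, 7.71, 7.41 and 5.15 FPKM in ovariectomized and 8.13, 4.50 and 5.44 FPKM in control libraries. Its groups overlapped. Cd4 differed by a log2 fold change of -0.12 ± 0.31 and Cd8a by -0.00 ± 0.25 for treated against ovariectomized femora, with 95% intervals of -0.81 to 0.58 and of -0.58 to 0.58.

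**Figure D1:**
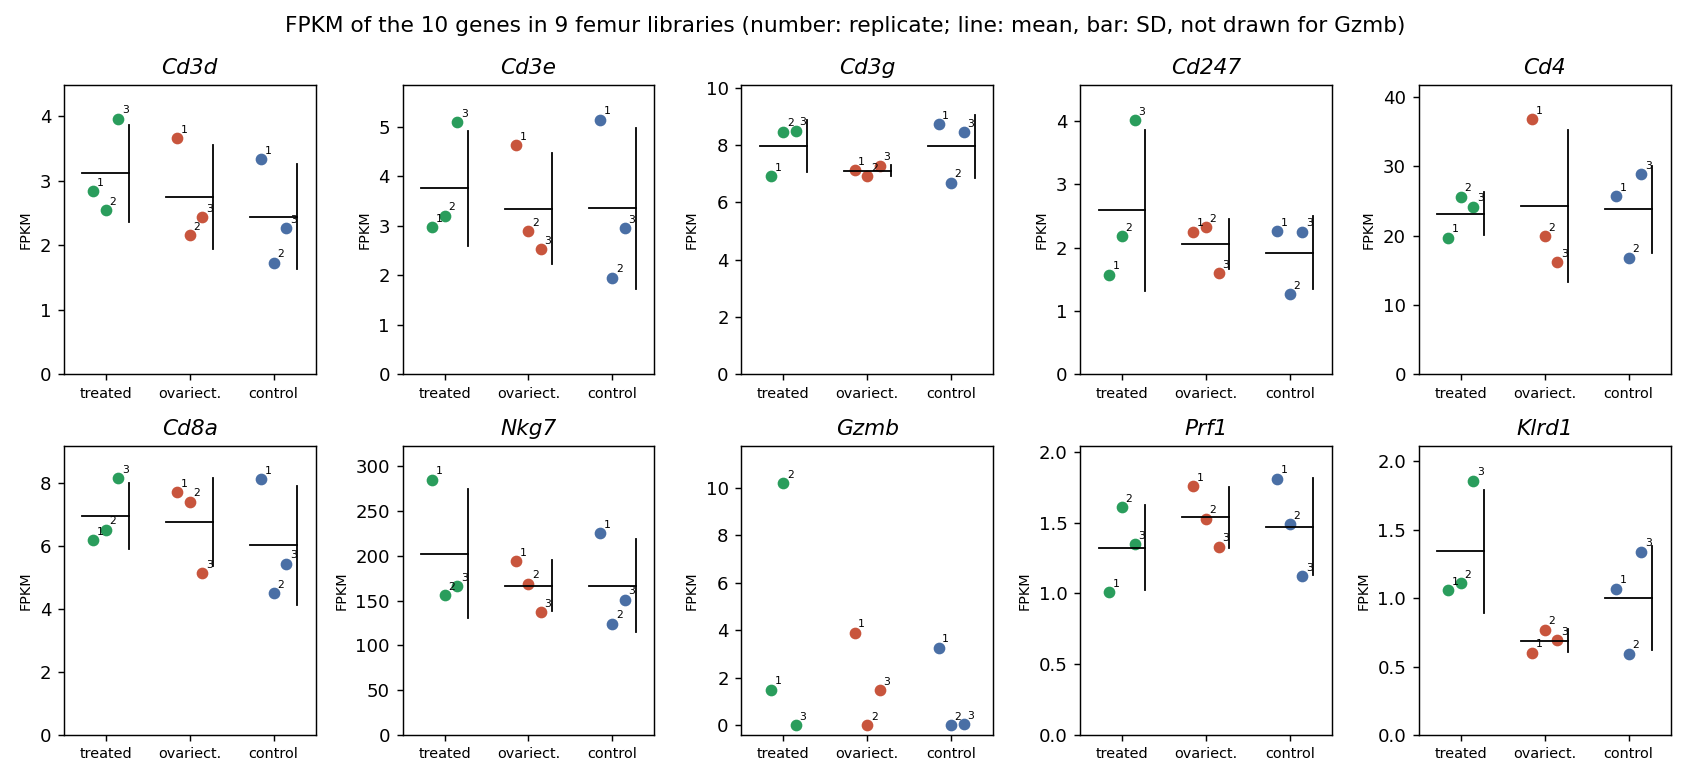
FPKM of each of the 10 genes (vertical axis, a separate scale per panel) in treated, ovariectomized and control femora. Points are libraries numbered by replicate, horizontal lines are group means and vertical bars are SD (n = 3), not drawn for Gzmb; the 3 groups overlap in every panel except that all treated Klrd1 values lie above all ovariectomized ones.

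Per unit of gene length, Cd4 was 2.68 to 5.32 times as abundant as Cd8a, with a median of 3.18 over the 9 libraries. The ratio was 2.96 to 3.92 in treated, 2.68 to 4.77 in ovariectomized and 3.16 to 5.32 in control libraries, and these ranges overlapped. Cd4 also exceeded Cd3e by 4.76 to 9.79 times. Across the libraries Cd4 was close to some macrophage genes. The centred log2 CPM of Cd4 correlated with that of Cd68, a lysosomal protein of macrophages, at Pearson r = 0.945 and Spearman rho = 0.917, and with that of Csf1r, the receptor for the macrophage growth factor, at r = 0.926 and rho = 0.950. Without the 2 libraries farthest from the median of Cd4, ovariectomized 1 and ovariectomized 3, r was 0.889 with Cd68 and 0.953 with Csf1r over 7 libraries. With Lck, the kinase that binds the CD4 tail in T cells, r was 0.247 and rho was 0.350. With the T cell genes among the 10 it was higher, at r = 0.685 and rho = 0.667 for Cd3e, r = 0.567 for Cd3d and r = 0.551 for Cd8a, and with the macrophage gene C1qa r was 0.674 and rho was 0.483.

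Whole marker lists overlapped in their range of r. Over the 9 tested macrophage genes the median r with Cd4 was 0.672, from 0.0896 for Vsig4 to 0.945 for Cd68, and over the 12 tested genes of T cell signalling and surface it was 0.306, from 0.117 for Cd2 to 0.674 for Skap1. For Cd8a the order was the other way, with a median r of 0.698 over the T cell list and 0.383 over the macrophage list. The mast cell and basophil list lay between these for both genes, with a median r of 0.598 for Cd4 and 0.615 for Cd8a. The summed CPM of the macrophage list was 894 to 1070 in treated, 711 to 1260 in ovariectomized and 985 to 1080 in control femora, highest in ovariectomized 1 and lowest in ovariectomized 3, the same libraries as for Cd4. Of the macrophage list, Marco was at 0 in all 9 libraries. The part of macrophages in the Cd4 level was not tested. All correlations here are over 9 libraries that share their group means, depth and scaling, the pairs were picked after values were seen, and they are given as descriptions with no p.

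Nkg7 (chromosome 1, 98492828 to 98493978), a granule membrane protein of killer lymphocytes, was the most abundant of the 10 genes. It had 285, 156 and 166 FPKM in treated, 194, 169 and 137 FPKM in ovariectomized and 225, 124 and 151 FPKM in control femora. Treated 1 and control 1 were high, and the groups overlapped. Its mean of 178 FPKM ranked above 97.3% of the tested genes, while Prf1 stood at the 5.58th percentile. The log2 fold change was 0.24 ± 0.30 for treated against ovariectomized femora, and -0.11 without treated 1.

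Prf1 (chromosome 20, 30915213 to 30921382) encodes perforin, the protein that opens the target cell's membrane. It had 1.01, 1.61 and 1.35 FPKM in treated, 1.76, 1.53 and 1.33 FPKM in ovariectomized and 1.81, 1.49 and 1.12 FPKM in control libraries. Treated 1, the library with the most Nkg7, had the least Prf1. The groups overlapped, with a log2 fold change of -0.26 ± 0.25 for treated against ovariectomized and 0.02 ± 0.25 for ovariectomized against control femora. Per unit of gene length, Nkg7 was 82.9 to 283 times as abundant as Prf1, with a median of 110 and the highest ratio in treated 1. Their correlation over the 9 libraries was r = -0.0921 and rho = 0.0333.

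Nkg7 was close to some genes of both lymphocyte and myeloid lists. Among the 11742 named genes compared, Cst7 was first (r = 0.989, rho = 0.967), the cystatin that inhibits granule cathepsins, followed by Sh3bp1 (r = 0.978), Arrdc1 (r = 0.971), Nucb1 (r = 0.969) and Il18rap (r = 0.969, rho = 0.983), a chain of the interleukin-18 receptor. Mpo and Elane, enzymes of the primary granules of neutrophil precursors, were picked from the neutrophil list. They had r = 0.967 and r = 0.966 with Nkg7, each with rho = 0.933. Without treated 1 and control 1 the r was 0.984 for Cst7, 0.869 for Mpo and 0.920 for Elane over 7 libraries. Over the 7 tested neutrophil genes the median r with Nkg7 was 0.809, from 0.634 for Camp to 0.967 for Mpo, and over the 9 tested natural killer receptor genes it was 0.413, from -0.274 for Cd226 to 0.892 for Tyrobp. The median r was 0.576 over the 11 other tested genes of the cytotoxic granule list, which holds Cst7, 0.556 over the 7 lymphocyte cytokine and chemokine receptor genes, which hold Il18rap, and 0.533 over the T cell signalling list. Ncr1, which encodes the natural killer receptor NKp46, had r = 0.283 and rho = -0.117 with Nkg7. The summed CPM of the neutrophil list was 17300 to 26000 in treated, 14600 to 18700 in ovariectomized and 13000 to 22900 in control femora, highest in treated 1. The part of neutrophil precursors in the Nkg7 level was not tested.

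**Figure D2:**
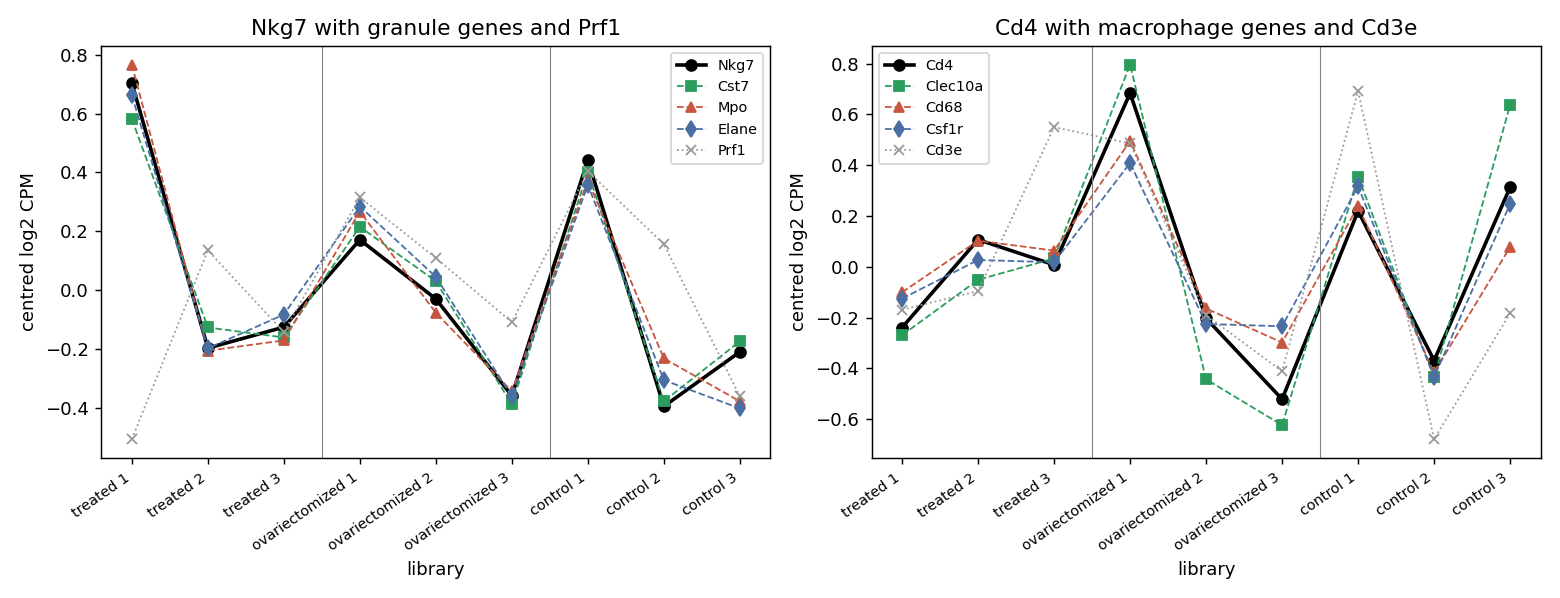
Log2 CPM minus the gene's mean over 9 libraries (vertical axis) for each library (horizontal axis), with Nkg7, Cst7, Mpo, Elane and Prf1 on the left and Cd4, Clec10a, Cd68, Csf1r and Cd3e on the right. Lines join the values of 1 gene and carry no order. Nkg7 lies close to Cst7, Mpo and Elane while Prf1 is lowest in treated 1. Cd4 lies close to Clec10a, Cd68 and Csf1r, which were picked after values were seen. Cd3e departs from Cd4 in treated 3, control 1 and control 3.

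Gzmb, the granzyme that cuts target proteins after aspartate, was present in some libraries of each group and absent or nearly absent in others. Its row held 138, 1015 and 0 counts in treated, 402, 0 and 151 counts in ovariectomized and 331, 0 and 5 counts in control femora. The 0 counts allow up to 3 counts, which is 0.0495 CPM in treated 3, 0.0546 CPM in ovariectomized 2 and 0.0478 CPM in control 2, and this limit covers counting error only. Each group therefore held libraries at both ends. The log2 fold change of 1.08 ± 2.24 for treated against ovariectomized femora, with a 95% interval of -4.04 to 6.19, cannot be read in either direction, and it was -1.28 without treated 2 and 2.37 without ovariectomized 1.

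The Gzmb row is an uncertain measure of the gene. It spans 144626 bases on chromosome 15 (36327721 to 36472346), against a length of 3463 bases for Gzmb in RefSeq's GRCr8 annotation, and 3 other rows overlap it. Rats carry several near-identical granzyme genes, among which reads can be split. Gzmbl2, a granzyme B-like gene on the same chromosome, had 246, 224 and 22 counts in treated, 298, 11 and 240 counts in ovariectomized and 166, 16 and 23 counts in control libraries. The libraries low for Gzmb were the libraries low for Gzmbl2. Gzmk and Gzmm, granzyme genes on chromosomes 2 and 7, had at least 127 and 195 counts in every library, and the libraries with 0 Gzmb counts did not lack them: Gzmm had 504 counts in treated 3, 346 in ovariectomized 2 and 195 in control 2.

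Klrd1 (chromosome 4, 163358009 to 163369854) encodes CD94, the partner that some of the NKG2 receptors need to reach the surface of natural killer cells. It had 1.06, 1.11 and 1.86 FPKM in treated, 0.602, 0.769 and 0.691 FPKM in ovariectomized and 1.07, 0.594 and 1.34 FPKM in control femora, from 68 to 206 counts. All 3 treated libraries lay above all 3 ovariectomized ones, and the control group spanned both. Group means were 1.35 ± 0.449 FPKM in treated, 0.687 ± 0.0836 FPKM in ovariectomized and 1.0 ± 0.377 FPKM in control femora (SD, n = 3 each). For treated against ovariectomized femora the log2 fold change was 0.92 ± 0.33, a 1.90-fold difference with a 95% interval of 1.13 to 3.19, higher in 3 of 3 treated libraries. It did not pass the threshold, with an adjusted p of 0.929 in edgeR, 0.549 in DESeq2 and 0.870 in limma. For ovariectomized against control femora it was -0.58 ± 0.33 and for treated against control femora 0.35 ± 0.32. These comparisons share libraries, so that the low ovariectomized values enter both the first and the second.

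Leaving out 1 library at a time kept the treated against ovariectomized estimate of Klrd1 between 0.63 (without treated 3) and 1.06 (without treated 1). With a mean of 1.01 FPKM, Klrd1 was only just above the limit for testing. Its treated mean lay above that limit and its ovariectomized mean below it, so that the treated libraries carried it past the filter, and the difference between these groups was bound up with being tested. With no filter on low values the estimate was 0.93, with an adjusted p of 0.909 in edgeR. Klrd1 stood at the 0.158th percentile of the tested genes. Of the 9 tested genes in the list of other natural killer receptors, 8 were higher and 1 lower in treated than in ovariectomized femora, beside 49.0% higher of all genes tested. The median log2 fold change of the 9 was 0.14, and none passed the threshold. Other lists leaned too: 7 of 7 tested neutrophil and 7 of 9 macrophage genes were higher, against 1 of 8 B cell and 0 of 7 erythroid genes. Ncr1 had a log2 fold change of -0.48 ± 0.24 for ovariectomized against control and -0.45 ± 0.24 for treated against control femora, with adjusted p of 0.974 and 0.615 in edgeR. The summed CPM of the natural killer receptor list was 412 to 430 in treated, 331 to 414 in ovariectomized and 347 to 478 in control femora. The ranges of treated and ovariectomized libraries overlapped. Tyrobp made up most of each sum, at 209 to 304 CPM, while Ncr1 was at 4.48 to 10.5 CPM.

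**Figure D3:**
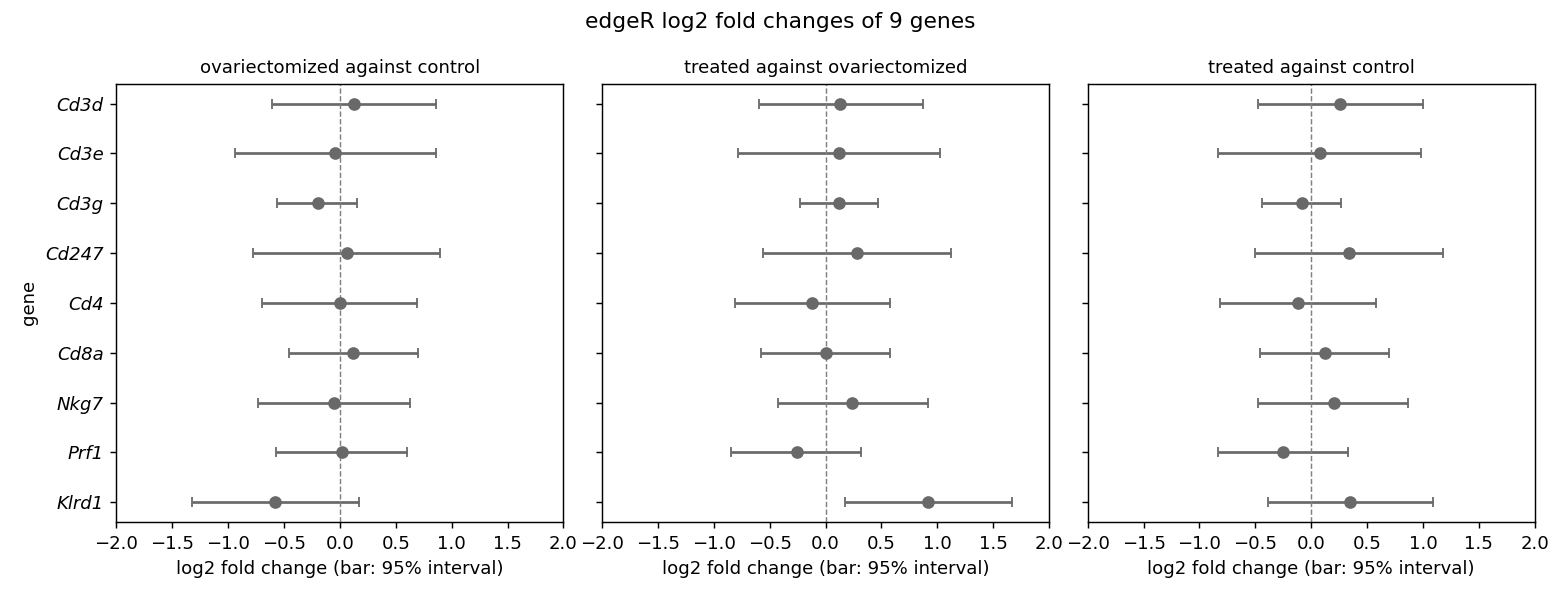
Log2 fold change (horizontal axis) of 9 genes (rows, Gzmb left out for its zero counts) in the 3 comparisons, from edgeR. Bars are 95% intervals, and the dashed line marks no change; 1 interval does not include 0, that of Klrd1 in treated against ovariectomized femora, from 0.17 to 1.67, which is not adjusted for the number of genes tested.

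Counted together, 5 of the 10 genes were higher and 5 lower in ovariectomized than in control femora, with a median log2 fold change of 0.01 beside -0.0037 over all genes tested. In treated against ovariectomized femora 7 were higher and 3 lower, with a median of 0.13 beside -0.0042, and in treated against control femora 7 were higher and 3 lower, with a median of 0.16. With edgeR, 0 of the 10 passed an adjusted p of 0.05 in each of the 3 comparisons, where the share of all genes tested was 0.00% in each. DESeq2 called 59, 35 and 153 of all genes in the comparisons in this order and none of the 10, and limma called 0 of all genes. At an unadjusted p under 0.05 in edgeR, 0 of the 10 in ovariectomized against control (5.05% of all genes tested), 1 in treated against ovariectomized (5.20%) and 0 in treated against control femora (8.81%) were past it. The libraries did not overlap for 0 genes in ovariectomized against control femora (8.94% of all genes tested), for 1 in treated against ovariectomized (12.4%) and for 0 in treated against control femora (13.1%), so that the counts lay near or below the share over all genes. The counts of genes that were higher depended on single libraries. The 5 in ovariectomized against control femora became 1 without ovariectomized 1 and 8 without control 1, and the 7 in treated against ovariectomized femora became 4 without treated 3 and 9 without ovariectomized 1.

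The highest or lowest levels of several genes fell in the same libraries. Control 2 had the lowest CPM for 5 of the 9 genes other than Gzmb and control 1 the highest for 4, while treated 3 was highest for Cd3d, Cd247 and Klrd1. Control 2 was also the library with the most RNA of red cell precursors, with a summed CPM of 107000 over the erythroid list, against 32800 to 44700 in treated, 42100 to 49300 in ovariectomized and 48900 to 52800 in the other control libraries. The part of the erythroid RNA in the low values of control 2 was not tested. Summed over the 6 T cell receptor and coreceptor genes and Cd8b, the CPM was 62.0 to 79.8 in treated, 52.9 to 102 in ovariectomized and 52.6 to 87.6 in control femora. Cd4 made up most of each sum, at 29.4 to 67.7 CPM, so that the sum mostly followed Cd4.

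**Figure D4:**
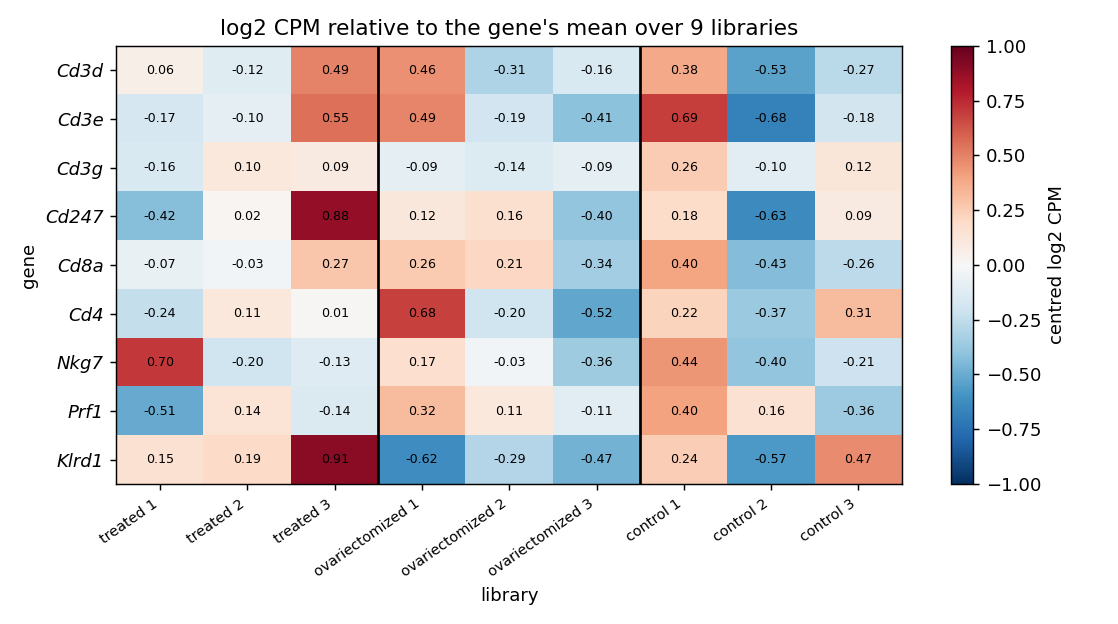
Log2 CPM of 9 genes (rows) in each library (columns) relative to the gene's mean over the 9 libraries; black lines separate the treated, ovariectomized and control groups, and red is above and blue below the mean. Control 1 is above the mean for all 9 genes, Prf1 is the only gene above it in control 2 (0.16), and Cd247 (0.88) and Klrd1 (0.91) are highest in treated 3.

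The T cell genes moved together to different degrees. Cd3d and Cd3e had r = 0.933 and rho = 0.883, or r = 0.892 without treated 3 and ovariectomized 1, and Cd3e and Cd8a had r = 0.897 and rho = 0.900. Cd3g followed Cd3d less closely, with r = 0.359 and rho = 0.267, although their starts are neighbours. The mean profile of the 6 T cell genes was closest to Il2rb (r = 0.954, rho = 0.850), the shared beta chain of the interleukin-2 and interleukin-15 receptors. Slamf7, a surface receptor of natural killer and other immune cells, came next (r = 0.953, rho = 0.933), followed by Matk (r = 0.933), Naa35 (r = 0.932) and Trappc11 (r = 0.928). The profile of the 4 cytotoxic genes was closest to Tmem184b (r = 0.955), Socs1 (r = 0.936) and Men1 (r = 0.915). Prr7 (r = 0.911) and Sec16a (r = 0.907) followed. Gzmb varied most, from -4.87 to 5.07 in centred log2 CPM, so that this profile mostly followed the Gzmb row. Without Gzmb the closest were Daglb (r = 0.941), Polk (r = 0.937) and Itm2c (r = 0.936). Aprt (r = 0.922) and Ppm1h (r = 0.916) came next. These names are the highest of 11742 genes over 9 libraries and are given as a description.

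By mean FPKM the order was Nkg7 (178), Cd4 (23.8), Cd3g (7.67), Cd8a (6.58), Cd3e (3.48), Cd3d (2.77), Gzmb (2.26), Cd247 (2.19), Prf1 (1.45) and Klrd1 (1.01). Nkg7, at 124 to 285 FPKM, did not overlap with Cd4, at 16.2 to 36.8 FPKM, and Cd4 did not overlap with Cd3g, at 6.68 to 8.73 FPKM. From Cd3g down, neighbours in the order overlapped over the 9 libraries.

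Other genes of the T cell, natural killer and cytotoxic pathways were read from the same fits. Of 69 genes in the lists besides the 10, 67 had a row and 46 were tested. In ovariectomized against control femora 18 were higher and 28 lower, in treated against ovariectomized femora 37 were higher and 9 lower, and in treated against control femora 31 were higher and 15 lower, with medians of -0.02, 0.12 and 0.12 on the log2 scale in this order. Of all genes tested, 48.7%, 49.0% and 50.0% were higher in these comparisons. The 46 include genes with a mean far above that of Cd3e (3.48 FPKM), such as Tyrobp (399), Rab27a (74.7) and Ctsc (47.3). Which cells carried their RNA was not tested, so the tally cannot be read as one of lymphocytes alone. Lists of other cells leaned as well in treated against ovariectomized femora: all 7 tested neutrophil genes were higher (median 0.30), all 7 erythroid genes lower (median -0.32) and all 6 skeletal muscle genes lower (median -1.04), with 0 of them past the threshold in edgeR. In treated against control femora the neutrophil genes were again 7 of 7 higher (median 0.27), the erythroid genes 7 of 7 lower (median -0.61) and the muscle genes 6 of 6 higher (median 0.65). The summed CPM of the muscle list was 814 to 1700 in treated, 1170 to 5120 in ovariectomized and 346 to 1020 in control femora, and the part of these cells in the lean of the 46 genes was not tested. With edgeR 0 of the 46 passed the threshold in any comparison, and 0, 0 and 1 had an unadjusted p under 0.05.

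Among effector genes, Gzmk, a granzyme of memory T cells, had a log2 fold change of -0.74 ± 0.34 for ovariectomized against control femora, with an adjusted p of 0.974 in edgeR. Ccl5, a chemokine made by activated T and natural killer cells, had -0.56 ± 0.40 in the same comparison, with an adjusted p of 1.0. The cytokine genes Ifng and Il2 were close to 0, with at most 10 and 8 counts in any library. Ptcra, which marks developing T cells of the thymus, had at most 24 counts, while Rag1, Rag2 and Dntt, which B cell precursors share with thymocytes, passed the filter. The median r with the 8 tested genes of the B cell list was below 0 for each of the 6 T cell genes, from -0.764 for Cd3e and -0.726 for Cd3d to -0.416 for Cd3g and -0.32 for Cd247. It was also below 0 for Nkg7 (-0.67), Gzmb (-0.366), Klrd1 (-0.252) and Prf1 (-0.185). With the erythroid list the median r was below 0 for the 6 T cell genes as well, from -0.621 for Cd3d to -0.089 for Cd3g. The summed CPM of the B cell list was 425 to 578 in treated, 378 to 642 in ovariectomized and 333 to 596 in control femora. CPM values within a library share 1 total.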

How the data were processed

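RNA-seq of 9 rat femur libraries was used, 3 each from treated, ovariectomized and control rats, grouped by GEO's labels. The authors deposited whole-number counts and FPKM values per gene in 1 table, per the file headers. The submitters' processing notes name fastp, HISAT2 and StringTie without versions; the sources used here name no genome build, counting method or strand setting. A count of 0 is listed as 0.0001 FPKM in the deposited table. The 13886 genes averaging 1 FPKM or more were tested on the deposited counts with edgeR 4.0.16 (R 4.3.3; quasi-likelihood test with TMM scaling, all 9 libraries in the same fit), with Benjamini-Hochberg adjustment over all of them and a threshold of 0.05. Standard errors are the size of the log2 fold change over the square root of F, and 95% intervals use the test's degrees of freedom. The common biological coefficient of variation was 0.262. DESeq2 1.42.0 and limma 3.58.1 (on log2 of FPKM + 1 or + 0.1), other filters, scaling, a replicate block and leaving out each library were alternatives; the fit was also tested on simulated data. Correlations used log2 CPM with a prior count of 1. Figures were drawn with matplotlib 3.10.9. Of each gene list, up to 2 genes with the smallest p per comparison could be named. The members and lists were chosen with earlier results of these data known. The likeness of single genes, the cytotoxic profile without Gzmb, marker pairs and list correlations were added after values were seen. Another 3 list genes were not analysed here, and 1 gene of the pathway lists is not reported here by name.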

Additional observations from a re-analysis of the deposited data

How the results depend on the processing

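None of the 10 genes passed the threshold under any alternative run. Of 492 alternative estimates for 30 values (10 genes in 3 comparisons), 434 stayed on the same side of 0 and 58 did not; 22 values changed sign at least once and 8 did not. The cause was not tested.

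Counts of all genes called depended on the tool. DESeq2 called 59 genes for ovariectomized against control, 35 for treated against ovariectomized and 153 for treated against control, where edgeR called 0. In this order, fits of only the 2 groups compared called 2, 1 and 1. Leaving out 1 library gave 0 to 4 (4 without control 1), 0 to 2 (2 without control 2) and 0 to 3 (3 without treated 2 and without control 1). With the replicate number as a block the counts were 0, 0 and 0. The deviations of same-numbered libraries correlated at -0.135 to 0.171, so the numbers were not taken to pair the libraries.

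Log2 fold changes close to 0 changed sign with the setting. For ovariectomized against control, Cd3e was 0.0096 with the replicate block and 0.04 and 0.06 in limma with + 1 and + 0.1, and Nkg7 was 0.03 in both limma fits. For treated against ovariectomized, Cd4 was 0.0089 and 0.01 in limma, and Cd8a was 0.0031 with median-of-ratios factors, 0.0033 in DESeq2, 0.0072 with no filter, 0.0043 with at least 5 FPKM, 0.0052 with only the 2 groups, 0.02 with the replicate block and 0.05 in both limma fits. For treated against control, Cd3g was 0.0039 and 0.0046 in limma.

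Leaving out 1 library at a time gave these ranges of log2 fold change. For ovariectomized against control they were -0.14 to 0.43 (Cd3d), -0.35 to 0.42 (Cd3e), -0.17 to 0.22 (Cd247), -0.44 to 0.22 (Cd4), -0.05 to 0.41 (Cd8a), -0.22 to 0.24 (Nkg7), -0.66 to 6.14 (Gzmb) and -0.17 to 0.19 (Prf1). For treated against ovariectomized they were -0.06 to 0.40 (Cd3d), -0.15 to 0.43 (Cd3e), -0.17 to 0.53 (Cd247), -0.34 to 0.32 (Cd4), -0.17 to 0.11 (Cd8a), -0.11 to 0.40 (Nkg7) and -1.28 to 2.37 (Gzmb). For treated against control they were -0.19 to 0.55 (Cd3e), -0.18 to 0.0056 (Cd3g), -0.11 to 0.59 (Cd247), -0.30 to 0.01 (Cd4), -0.04 to 0.42 (Cd8a), -0.15 to 0.49 (Nkg7) and -0.64 to 7.22 (Gzmb). The filter at 5 FPKM leaves 4 of the 10 genes. Counting error is largest where counts are low. Apart from Gzmb, the genes with the lowest counts in any library were Klrd1 (68 to 206), Cd3d (82 to 181), Cd247 (141 to 435) and Prf1 (152 to 298).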
